A study of Mus musculus with 10 samples.

Results

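Oxidative phosphorylation was described through 84 nuclear genes for subunits of the mitochondrial respiratory chain and ATP synthase, with the assembly factors that share their names. They were chosen by symbol alone: every probe set whose platform annotation named 1 gene starting with Nduf, Uqcr or Atp5, with Sdha to Sdhd, or with Cox followed by 4, 5, 6, 7 or 8. The rule took 84 of the 12393 genes that a probe set names alone, through 156 of the 22690 probe sets on the array. It used no measured value, although the members were chosen with earlier results of these data known. It left out 8 probe sets that name such a gene together with others. By complex, 33 genes belonged to complex I, 5 were complex I assembly factors, 4 belonged to complex II, 8 to complex III, 17 to complex IV and 17 to complex V. The complex IV group also holds Ndufa4, now placed in that complex, and Cox7a2l, a factor that helps complexes III and IV associate.

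RNA was measured in whole testes of mice aged 10 days on Affymetrix arrays. In SCARKO mice the androgen response is removed selectively in Sertoli cells, somatic cells that support germ cells inside the seminiferous tubules. Control mice carried the AMHCre transgene, which drives Cre recombinase from the promoter of Amh, a Sertoli cell gene. There were 5 control and 5 SCARKO arrays. Each held 1 pool made from 1 testis of each of 3 mice, and a control and a SCARKO pool of littermates formed each of 5 pairs, so all errors and p-values describe the spread between such pools. For the 8 arrays of pairs 1 to 4 the genotype in a sample's title is the opposite of that in its longer description, while for pair 5 both name 1 genotype. Titles were used here. Every direction below rests on them, and the result with groups from the descriptions stands in the closing section.

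In the electron transport chain, complexes I and II pass electrons from NADH and succinate to ubiquinone, complex III passes them to cytochrome c, and complex IV passes them to oxygen. Complex V, the ATP synthase, uses the proton gradient that complexes I, III and IV build. Most subunits are encoded in the nucleus and some in mitochondrial DNA. Several complex IV subunits come as tissue-restricted isoforms, such as Cox7a1 in striated muscle and Cox6b2 and Cox8c in testis. In the seminiferous tubule, Sertoli cells are known for glycolysis and for supplying lactate, which maturing germ cells oxidise.

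Signals of the whole array were alike in scale, with a mean without the extreme 2% at each end of 100 on all 10 arrays and medians of 36.4 to 37.6. The probe sets in the lowest 40% by mean log2 signal, those under a signal of about 19.3, were left out of testing. The remaining 13576 were fitted with limma with the pair as a block, and called at a Benjamini-Hochberg adjusted p under 0.05. That left 138 of the 156 probe sets and 80 of the 84 genes. The probe sets that name Cox4i2, Cox6a2, Cox7c or Cox8b alone were too dim. A gene is represented by its brightest kept probe set, and its values are deposited signal intensities in array units. As a value on the sample groups, Rhox5, a Sertoli cell homeobox gene known to need androgen, had a signal of 178 ± 61.7 (SD, n = 5) in control pools and 9.48 ± 1.91 (SD, n = 5) in SCARKO pools and was lower in all 5 pairs (log2 fold change -4.17, SE 0.24, limma adjusted p = 6.1e-06). The targeted gene is not reported here.

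The genes of oxidative phosphorylation were near their control level in SCARKO testes. Of the 80 measured genes, 3 rose and 1 fell. The 3 that rose were Ndufa13 and Ndufa6, accessory subunits of complex I, and Cox7a2l. The 1 that fell was Cox7a1, the striated muscle isoform of a complex IV subunit. Among all 7973 measured genes 5.69% were called, 2.17% higher and 3.52% lower. The members' 3 higher calls were 3.75% of them and the 1 lower call 1.25%, so their share of calls was near the background. No member was called when dim probe sets were kept in the fit, nor when the pair block was dropped. By probe set, 4 of 138 were called (2.9%), beside 5.19% of all 13576: 3 rose, beside 1.93% of all, and 1 fell, beside 3.26%.

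Below the threshold, more members were slightly higher than lower. The log2 fold change was above 0 in 60 of the 80 genes (75%), beside 55% of all genes. Higher signals in SCARKO in all 5 pairs were found for 23 members (28.7%), beside 11% of all genes, and lower ones in all 5 pairs for 4 members (5%), beside 8.78%. An unadjusted p under 0.05 was reached by 21 members upward and 3 downward, beside 11.6% and 10.1% of all genes. The sizes were small. The median log2 fold change was 0.055 over the members, an increase of 3.87%, and 0.015 over all genes, an increase of 1.08%. The members' median was above 0 within each pair, at 0.030, 0.046, 0.097, 0.040 and 0.052 in pairs 1 to 5, with an SD of 0.026 between pairs. The median of all genes was above 0 in every pair too, from 0.0067 to 0.027. Genes are not independent replicates, and these counts were not tested.

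Members were measured more tightly than most genes. The median standard error of their log2 fold change was 0.043, beside 0.072 over all genes. For 66 of the 80 members (82.5%) the 95% confidence interval lay within a 1.2-fold change in either direction. The same held for 53.4% of all genes and for 84.8% of the 1823 genes with a mean log2 signal of at least 8, a level that 71 of the 80 members reached. The 71 bright members had a median log2 fold change of 0.057, and the 1823 bright genes had one of 0.013. Higher signals in all 5 pairs were found for 22 of these 71 and 256 of these 1823, and lower ones for 2 and 211. An unadjusted p under 0.05 was reached upward by 19 of the 71 and 262 of the 1823, and downward by 1 and 237. These counts were not tested either.

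**Figure D1:**
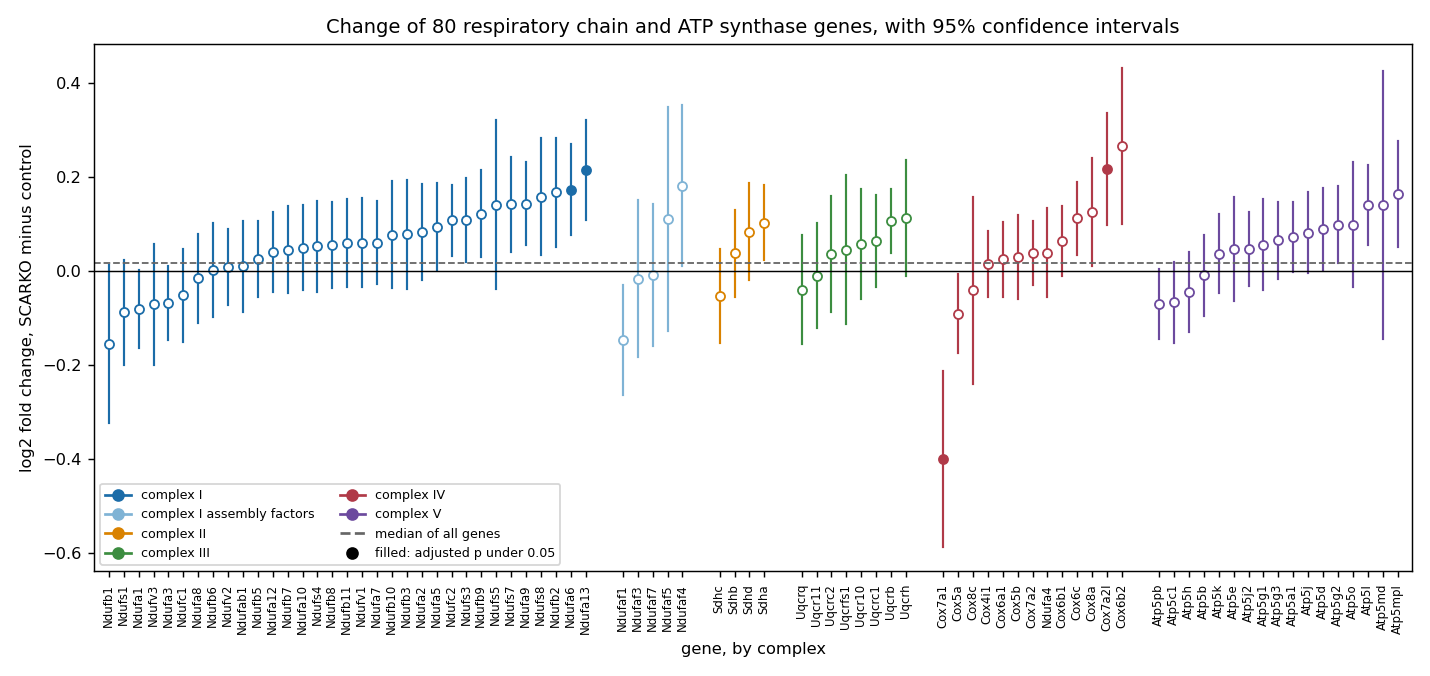
Log2 fold change, SCARKO minus control, of the 80 measured genes by complex, each with its 95% confidence interval over 5 pairs. Filled points are the 4 genes with a limma adjusted p under 0.05, the dashed line is the median of all 7973 genes at 0.015, and Cox7a1 at -0.40 is farthest from 0.

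Cox7a1 had the largest change among the members. Its protein takes the place of Cox7a2 in complex IV of heart and skeletal muscle. Control pools 1 to 5 had signals of 68.7, 78.6, 92.9, 65.5 and 64.7, and SCARKO pools 1 to 5 had 49.3, 67.7, 68.2, 56.5 and 41.2. Each SCARKO pool was below its littermate control, but the groups overlapped between 64.7 and 68.2. The means were 74.1 ± 11.9 (SD, n = 5) and 56.6 ± 11.7 (SD, n = 5), a 1.32-fold decrease (log2 fold change -0.40, SE 0.085, limma adjusted p = 0.021, 95% interval -0.59 to -0.21). The call was lost without pair 1, 3 or 5, with an adjusted p of up to 0.084 when 1 pair was left out, and without the pair block (limma adjusted p = 0.18).

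Markers of peritubular myoid cells, the smooth muscle-like cells around the tubules, were set beside Cox7a1. Of 7 listed and measured markers none was called and 6 had a log2 fold change below 0, beside 3591 of all 7973 genes. The median of these markers was -0.12. Their summed signal was 2879.5 to 3263.3 in control pools and 2547.2 to 2972.3 in SCARKO pools. Mylk, myosin light chain kinase, was at -0.17 (limma adjusted p = 0.091) and Acta2, smooth muscle actin, at -0.05 (limma adjusted p = 0.54). The part of these cells in the Cox7a1 value was not tested. In whole testis, fewer cells of a type and less RNA per cell cannot be told apart.

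Ndufa13, also known as Grim19, is an accessory subunit in the membrane region of complex I. Its signals were 868.3, 877.1, 894.0, 897.2 and 819.7 in control pools 1 to 5 and 1130.9, 956.4, 1127.4, 1001.3 and 863.5 in SCARKO pools 1 to 5. Each SCARKO pool exceeded its littermate control, and SCARKO pool 5 lay within the control range. The rise was 1.16-fold (log2 fold change 0.21, SE 0.049, limma adjusted p = 0.028), from 871 ± 31.2 to 1016 ± 115 (SD, n = 5 each). Without pair 1, 3 or 4, or without the pair block (limma adjusted p = 0.13), the call was lost.

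Ndufa6 belongs to the LYR-motif proteins and sits in complex I with the mitochondrial acyl carrier protein. Control pools 1 to 5 gave 377.3, 350.5, 350.4, 333.4 and 382.0, and SCARKO pools 1 to 5 gave 406.2, 378.3, 393.5, 395.7 and 448.6. All 5 pairs rose while the groups overlapped slightly, since SCARKO pool 2 was below control pool 5. Means were 359 ± 20.4 and 404 ± 26.6 (SD, n = 5 each), a 1.13-fold rise (log2 fold change 0.17, SE 0.044, limma adjusted p = 0.046). This call was lost whichever 1 pair was left out, with adjusted p from 0.053 to 0.16, and without the pair block (limma adjusted p = 0.15).

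Cox7a2l is related in sequence to Cox7a1 and Cox7a2. Its brightest probe set gave 361.7, 349.9, 321.1, 390.4 and 407.9 in control pools 1 to 5 and 473.1, 398.9, 403.8, 413.5 and 435.4 in SCARKO pools 1 to 5. Again every pair rose and the groups overlapped. The means of 366 ± 34.1 and 425 ± 30.4 (SD, n = 5 each) gave a 1.16-fold rise (log2 fold change 0.22, SE 0.054, limma adjusted p = 0.043). The identifier of this probe set carries the suffix that Affymetrix gives where some probes match other transcripts. The gene's other 2 probe sets had log2 fold changes of 0.19 (limma adjusted p = 0.062) and 0.13 (limma adjusted p = 0.21). The call was lost without pair 1, 2, 3 or 5 and without the pair block (limma adjusted p = 0.13), while the probe set at 0.19 was called without pair 2 (limma adjusted p = 0.025).

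**Figure D2:**
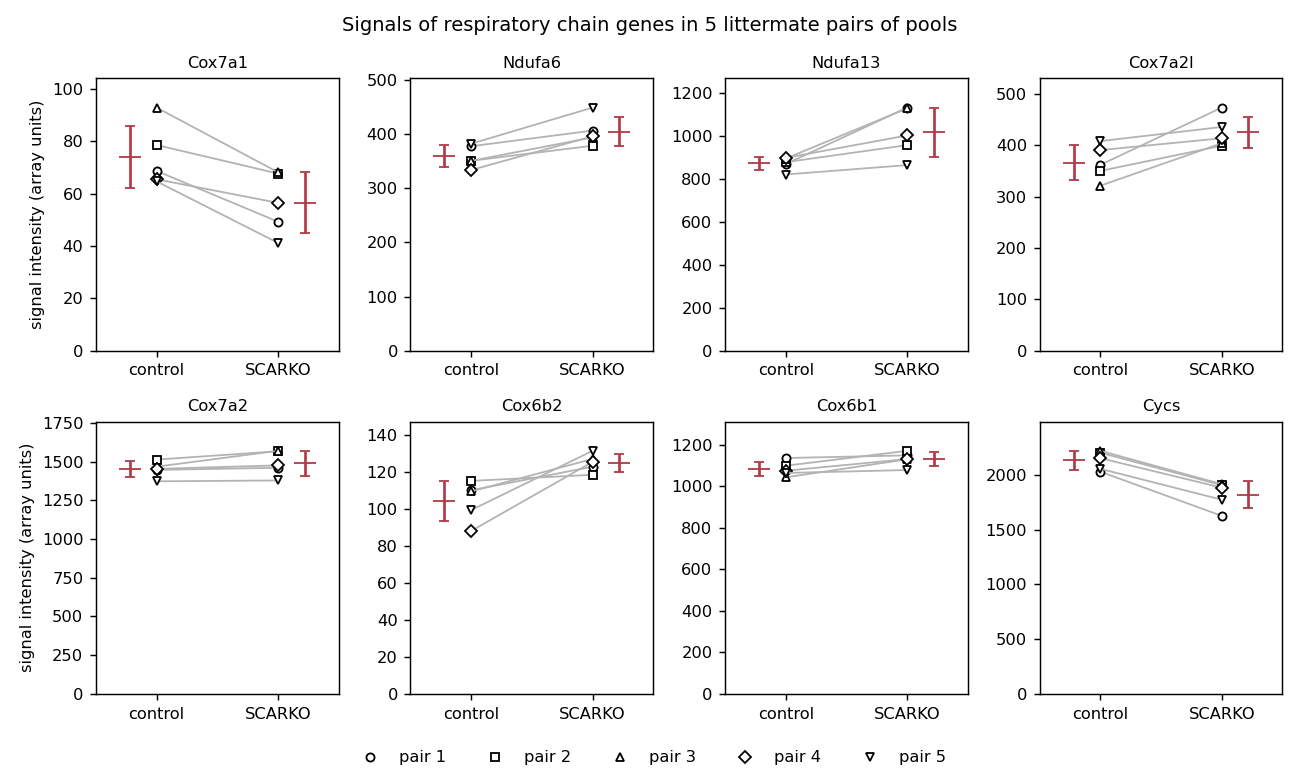
Signal intensity in array units of 8 genes in control and SCARKO pools, with symbols for pairs 1 to 5, grey lines joining littermate pools, and red bars for the mean ± SD of each group of 5. Cox7a1 and Cycs are lower in SCARKO in all 5 pairs, while Ndufa6, Ndufa13, Cox7a2l and Cox6b2 are higher in all 5, and Cox7a2 and Cox6b1 move by under 1.1-fold.

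The sequences upstream of the 4 called genes are shown with those of Cox7a2, the common partner of Cox7a1, and of Cox6a1, a complex IV gene that holds the letters of both nuclear respiratory factors. NRF1 and GABP (also called NRF2) are the factors best known for driving nuclear genes of the respiratory chain. Each line gives the 250 bases before the gene's start, 5′ to 3′ on the gene's strand, from RefSeq on GRCm38.p6. Capitals mark matches, on either strand, to the letters of NRF1 (GCGCA and GCGC with any 1 base between), GABP (CCGGAAG), the GC box (GGGCGG) or the CCAAT box (CCAAT).
Cox7a1: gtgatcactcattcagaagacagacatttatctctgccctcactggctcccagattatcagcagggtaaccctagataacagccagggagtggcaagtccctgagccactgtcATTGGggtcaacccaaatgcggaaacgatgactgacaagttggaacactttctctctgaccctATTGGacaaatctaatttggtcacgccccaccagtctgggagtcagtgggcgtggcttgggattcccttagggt
Cox7a2: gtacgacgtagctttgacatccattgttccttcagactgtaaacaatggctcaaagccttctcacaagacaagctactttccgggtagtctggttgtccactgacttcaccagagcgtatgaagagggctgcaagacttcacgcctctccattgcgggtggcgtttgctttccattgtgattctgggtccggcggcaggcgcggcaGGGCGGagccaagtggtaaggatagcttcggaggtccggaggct
Cox7a2l: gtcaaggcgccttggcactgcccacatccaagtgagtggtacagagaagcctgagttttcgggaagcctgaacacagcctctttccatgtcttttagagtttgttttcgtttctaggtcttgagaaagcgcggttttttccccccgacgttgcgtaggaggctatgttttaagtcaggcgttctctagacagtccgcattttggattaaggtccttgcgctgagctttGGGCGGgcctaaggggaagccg
Ndufa6: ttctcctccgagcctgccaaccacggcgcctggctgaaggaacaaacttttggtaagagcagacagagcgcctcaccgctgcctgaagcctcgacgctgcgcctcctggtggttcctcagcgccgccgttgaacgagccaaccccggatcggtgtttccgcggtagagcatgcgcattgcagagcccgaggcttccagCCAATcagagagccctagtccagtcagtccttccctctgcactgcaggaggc
Ndufa13: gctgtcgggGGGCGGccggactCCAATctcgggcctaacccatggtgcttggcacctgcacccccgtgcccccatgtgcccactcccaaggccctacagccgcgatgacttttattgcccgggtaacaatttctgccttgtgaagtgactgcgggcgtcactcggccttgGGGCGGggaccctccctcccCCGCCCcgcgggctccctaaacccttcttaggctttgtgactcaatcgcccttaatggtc
Cox6a1: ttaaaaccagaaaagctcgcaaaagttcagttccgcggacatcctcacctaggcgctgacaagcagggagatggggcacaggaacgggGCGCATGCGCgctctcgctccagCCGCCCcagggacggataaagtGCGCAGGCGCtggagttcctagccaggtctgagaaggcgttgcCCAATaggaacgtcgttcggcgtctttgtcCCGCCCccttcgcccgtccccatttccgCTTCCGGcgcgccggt

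Cox7a1 lies at chr7:30183921-30184170 on the + strand, Cox7a2l at chr17:83514334-83514583, Ndufa13 at chr8:69902021-69902270, Ndufa6 at chr15:82354292-82354541, Cox7a2 at chr9:79759854-79760103 and Cox6a1 at chr5:115348959-115349208, the last 5 on the − strand. The marked letters in Cox7a1 are CCAAT, starting 137 and 74 bases before the gene's start. Cox7a2l has GC box letters 22 bases before its start, Ndufa6 has CCAAT letters 52 bases before it, and Ndufa13 has 3 GC boxes and 1 CCAAT. None of the 4 called genes holds the NRF1 or GABP letters in this window, and most members do not, since 21 of 70 hold either. Cox6a1 holds NRF1 letters 162 and 117 bases before its start and GABP letters 16 bases before it.

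Promoter windows were given for 70 of the 84 genes. NRF1 letters were in 11 of them (15.7%), beside 4.23% of all 27025 genes with a window, and GABP letters in 13 (18.6%), beside 7.83%. Either was in 21 members, and both were in Atp5h, Cox6a1 and Sdhd. GC box letters were in 38.6% of members and 35.4% of all these genes, and CCAAT in 40% and 37.5%. TATAAA was in 8.57% of members and 14.3% of all. The letters of an androgen response element (AGAACA and TGTTCT with any 3 bases between) were in no member and in 3 of all genes. The 9-letter site of the estrogen-related receptors (TCAAGGTCA) was found in Atp5g3 alone, 1.43% of members, beside 0.422% of all. The MEF2 letters (CTA and TAG with any 4 bases between) were in Cox5b alone, also 1.43%, beside 3.7% of all. A match describes letters in the window and was not tested for binding.

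Complex I, the NADH dehydrogenase, had 33 measured genes, of which 2 rose, none fell and 31 did not pass. The median log2 fold change was 0.059, with 26 genes above 0 and 7 below, and ranged from -0.16 for Ndufb1 to 0.21 for Ndufa13. Within pairs it ran from 0.030 to 0.098. Among the subunits that did not pass, Ndufs8, an iron-sulfur subunit of the peripheral arm, had signals of 1217 ± 165 in control and 1355 ± 167 in SCARKO pools (SD, n = 5 each; log2 fold change 0.16, limma adjusted p = 0.14). Its 6 probe sets lay between 0.096 and 0.23, and the brightest was called without pair 2 (log2 fold change 0.22, limma adjusted p = 0.026) and at 0.096 without pair 4 (limma adjusted p = 0.34). Ndufb9, an accessory subunit of the membrane arm, had 985 ± 72.3 and 1069 ± 19.2 (log2 fold change 0.12, limma adjusted p = 0.13).

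Of the complex I genes, 3 had groups that did not overlap without passing the adjusted threshold. Ndufa9, an accessory subunit near the joint of the 2 arms, had 572 ± 23.5 and 631 ± 8.32 (log2 fold change 0.14, limma adjusted p = 0.068). Ndufs3, a core subunit of the peripheral arm, had at most 494.1 in control pools and at least 499.6 in SCARKO pools (log2 fold change 0.11, limma adjusted p = 0.16). Ndufs7, a core iron-sulfur subunit, had at most 358.2 and at least 367.7 (log2 fold change 0.14, limma adjusted p = 0.11). Over all members 6 genes were higher without overlap (7.5%), beside 2.47% of all genes, and 1 was lower (1.25%), beside 2.78%.

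The complex I genes on the X chromosome were Ndufa1 and Ndufb11, both subunits of the membrane arm. Ndufa1 had 1046 ± 123 in control and 986 ± 83.1 in SCARKO pools (SD, n = 5 each; log2 fold change -0.08, limma adjusted p = 0.25). Ndufb11 had 600.1 ± 20.9 and 626 ± 43.9 (log2 fold change 0.06, limma adjusted p = 0.48). The 269 X-linked genes measured had a median log2 fold change of -0.031.

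The 5 complex I assembly factors, which build the complex and are not part of the finished enzyme, showed no shared direction. None passed the test, 2 were above 0 and 3 below, and the median was -0.0096, or 0.018, 0.012 and 0.011 without pair 2, 3 or 4. Ndufaf1, a factor of the intermediate membrane-arm assembly, ran from 156.5 to 169.1 in control pools and from 142.1 to 154.1 in SCARKO pools. These ranges do not overlap and every pair was lower, at a log2 fold change of -0.15 (SE 0.053, limma adjusted p = 0.14). Ndufaf4 had 195 ± 24.7 and 222 ± 28.0 (log2 fold change 0.18, limma adjusted p = 0.21; 0.09 without pair 1), and its other probe set was at -0.02.

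Complex II, succinate dehydrogenase, links the tricarboxylic acid cycle to the chain, and none of its 4 genes passed. The median was 0.060, or 0.019 with each gene taken as the mean of its kept probe sets. Sdha, the catalytic flavoprotein, had signals of 673.1 to 700.5 in control pools and 709.4 to 765.0 in SCARKO pools. The groups did not overlap, yet the difference was small (688 ± 10.3 and 739 ± 27.2, SD, n = 5 each; log2 fold change 0.10, SE 0.037, limma adjusted p = 0.14). Sdhb, the iron-sulfur subunit, was at 0.04 (limma adjusted p = 0.67), and Sdhc, a membrane anchor, at -0.05. For Sdhd, the other anchor, 2 probe sets had opposite signs, 0.08 (limma adjusted p = 0.35) and -0.20 (limma adjusted p = 0.15).

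Complex III, cytochrome bc1, had 8 measured genes by the symbol rule and none passed. Of these, 6 were above 0, and the median was 0.051, or 0.014 without pair 4. Within pairs its median ran from -0.017 to 0.127. Cyc1, the gene of cytochrome c1 in this complex, is outside the symbol rule. It is counted with the electron carriers below (log2 fold change 0.03, limma adjusted p = 0.76). Uqcrb, a small subunit near the ubiquinone site, had 2039 ± 129 in control and 2195 ± 129 in SCARKO pools (SD, n = 5 each). It was higher in all 5 pairs (log2 fold change 0.11, SE 0.031, limma adjusted p = 0.078), and at 0.053 after quantile normalization (limma adjusted p = 0.28). Uqcrh, the hinge protein that helps dock cytochrome c1 and cytochrome c, was at 0.11 (limma adjusted p = 0.29), with values of 0.07 and 0.17 without pair 3 or 4.

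Complex IV, cytochrome c oxidase, had 13 measured genes, of which 1 rose, 1 fell and 11 did not pass. The median was 0.038, or 0.010 after quantile normalization and 0.021 without pair 2, and the spread between members was the widest, from -0.40 for Cox7a1 to 0.27 for Cox6b2. Cox6b2 is the testis isoform of the subunit that bridges the 2 monomers. Its signals were 110.3, 115.4, 109.7, 88.3 and 99.6 in control pools 1 to 5 and 123.1, 118.7, 127.3, 125.7 and 131.7 in SCARKO pools 1 to 5. All SCARKO pools lay above all control pools, but the difference missed the threshold (105 ± 10.8 and 125 ± 4.84; log2 fold change 0.27, SE 0.076, limma adjusted p = 0.070, 95% interval 0.10 to 0.43). Without pair 2 it was called (log2 fold change 0.32, limma adjusted p = 0.042). Its common partner Cox6b1 had 1082 ± 35.6 and 1131 ± 34.2 (log2 fold change 0.06, limma adjusted p = 0.32).

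The other isoforms of complex IV did not pass the test or had signals too dim to test. Cox7a2, the common partner of Cox7a1, had 1451 ± 50.6 in control and 1490 ± 80.4 in SCARKO pools (SD, n = 5 each; log2 fold change 0.04, limma adjusted p = 0.54, 95% interval -0.03 to 0.11). Cox4i1, the common regulatory subunit, was at 0.01 with an interval of -0.06 to 0.08, and Cox6a1 at 0.02 (limma adjusted p = 0.76); both were below 0 after quantile normalization, at -0.01 and -0.04. Cox8a was at 0.12 (limma adjusted p = 0.20, 95% interval 0.01 to 0.24), and the testis isoform Cox8c had 45.4 ± 2.03 and 44.3 ± 5.92 (log2 fold change -0.04, limma adjusted p = 0.84, 95% interval -0.24 to 0.16). Ndufa4 was at 0.04 (limma adjusted p = 0.66). The lung isoform Cox4i2 had mean signals of 5.24 and 5.62 in control and SCARKO pools, the muscle isoforms Cox6a2 and Cox8b 5.06 and 6.14, and 2.60 and 2.12.

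The probe sets of Cox6c had opposite signs and those of Cox5a the same sign. The brightest probe set of Cox6c, a nuclear subunit of the membrane part, had at most 1342.7 in control and at least 1372.1 in SCARKO pools (log2 fold change 0.11, limma adjusted p = 0.098), while its other one had 998 ± 154 and 982 ± 114. The 3 probe sets of Cox5a, a matrix-facing subunit, were all below 0, at -0.091, -0.086 and -0.13. Over the members, 41 genes had several kept probe sets. The signs agreed in 29 and differed in 12, with a median difference of 0.067 on the log2 scale.

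Complex V, the ATP synthase, had 17 measured genes, and none passed. The median was 0.065, or 0.035 without pair 3, with 13 genes above 0 and 4 below, from -0.07 for Atp5pb to 0.16 for Atp5mpl. Atp5b, the catalytic beta subunit, had 1400 ± 118 in control and 1387 ± 47.3 in SCARKO pools (SD, n = 5 each; log2 fold change -0.01, limma adjusted p = 0.92, 95% interval -0.10 to 0.08). Atp5g3, a gene for the c ring, was at 0.06 (limma adjusted p = 0.36). Atp5l, the g subunit of the membrane part, had 583 ± 67.3 and 641 ± 57.6 and was higher in all 5 pairs (log2 fold change 0.14, limma adjusted p = 0.064). Atp5mpl, a small membrane subunit, had 657 ± 44.0 and 735 ± 26.7 (log2 fold change 0.16, limma adjusted p = 0.099), and was called without pair 2 (limma adjusted p = 0.048).

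**Figure D3:**
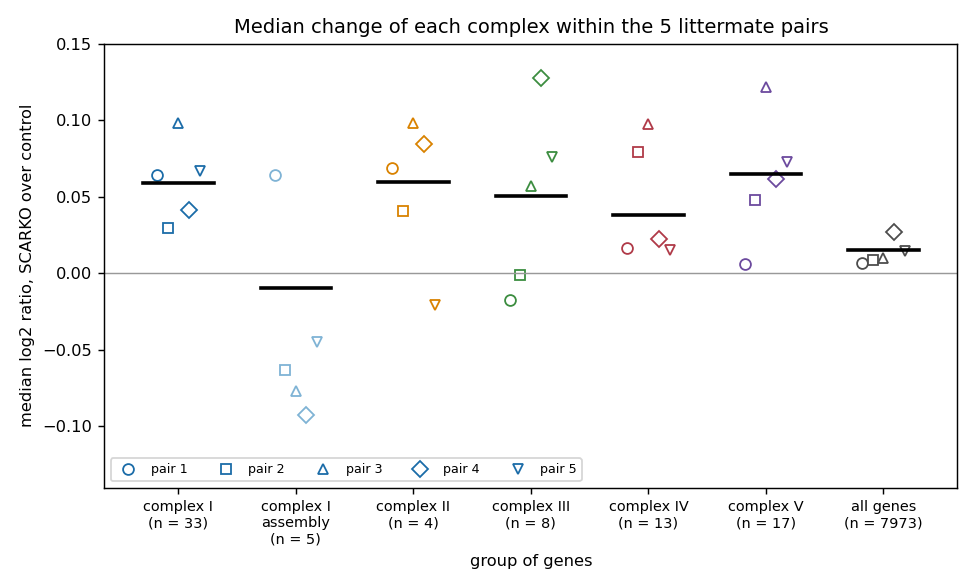
Median log2 ratio of SCARKO over control over the genes of each complex and over all 7973 genes, within each of the 5 littermate pairs (open symbols), with the median of the fitted log2 fold changes as a black line. Complexes I, IV and V lie above 0 in every pair, as do all genes, and the 5 assembly factors below 0 in pairs 2 to 5.

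Cytochrome c, which carries electrons from complex III to complex IV, had a smaller adjusted p than any of the 80 genes. Cycs, its somatic gene, had signals of 2027.2, 2200.6, 2218, 2150.9 and 2053.7 in control pools 1 to 5 and 1624.6, 1904.8, 1913.5, 1881.4 and 1771.6 in SCARKO pools 1 to 5. Every SCARKO pool was below every control pool. Cycs fell 1.17-fold (2130 ± 86.0 and 1819 ± 123, SD, n = 5 each; log2 fold change -0.23, SE 0.031, limma adjusted p = 0.0023). Its other 2 probe sets were at -0.35 (limma adjusted p = 0.0033) and -0.18 (limma adjusted p = 0.078). Its call was kept whichever 1 pair was left out, with adjusted p from 0.0048 to 0.012. It was lost when dim probe sets were kept in the fit (limma adjusted p = 0.066) and with groups from the descriptions. Cyct, the testis cytochrome c of germ cells, had 85.6 ± 10.8 and 80.4 ± 5.46 (log2 fold change -0.08, limma adjusted p = 0.59).

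Of 21 listed electron carriers and ubiquinone genes 18 were measured: Cycs fell, none rose, and the median was 0.0020. Coq7, a hydroxylase of ubiquinone synthesis, was at 0.18 (limma adjusted p = 0.063). Meiotic prophase markers, from the germ cells in which Cyct is known to appear, also stood lower. Of 12 measured, 3 fell and none rose, beside 3.52% and 2.17% of all genes. The median of these markers was -0.23, and their summed signal was 2649.5 to 3924.0 in control and 2364.7 to 3089.5 in SCARKO pools. Their part in the Cycs result was not tested.

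The genes that assemble and supply the chain changed little. Of 28 measured assembly and regulatory genes of complexes II to V, 1 rose, none fell, and the median was 0.032. Coa3, a complex IV assembly factor, had 271 ± 21.6 in control and 323 ± 13.3 in SCARKO pools (log2 fold change 0.26, limma adjusted p = 0.018), and its call was lost without pair 1, 3, 4 or 5. Cox20, a chaperone of a mitochondrial-encoded complex IV subunit, was at 0.24 (limma adjusted p = 0.055). Of 21 genes of the tricarboxylic acid cycle and pyruvate dehydrogenase, 1 fell and none rose. In this list 14 were below 0, beside 3591 of all 7973 genes, and the median was -0.037. Suclg1, the alpha subunit of succinyl-CoA ligase, was at -0.18 (limma adjusted p = 0.047), a call lost whichever 1 pair was left out and without the pair block (limma adjusted p = 0.16). Its ADP-forming partner Sucla2 was at -0.13 (limma adjusted p = 0.084).

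None of 15 measured regulators of mitochondrial biogenesis and mitochondrial DNA passed. At an unadjusted p under 0.05, 3 of these were lower and none higher, beside 10.1% and 11.6% of all genes. The 2 with the smallest p were Yy1, a zinc finger factor, at -0.13 (limma adjusted p = 0.12) and Tfb2m, which starts mitochondrial transcription, at -0.16 (limma adjusted p = 0.20). The third was Gabpa, the DNA-binding subunit of GABP, at -0.13 and lower in all 5 pairs (limma adjusted p = 0.21). Nrf1 was at 0.01 and Tfam, which packages mitochondrial DNA, at 0.07. Of 74 mitochondrial ribosome genes, 1 rose and 1 fell, and 53 (71.6%) were above 0, beside 55% of all genes. Their median was 0.050, beside 0.055 for the oxidative phosphorylation genes. Mrpl34 was at 0.26 (limma adjusted p = 0.048) and Mrps6 at -0.28 (limma adjusted p = 0.049). Mrpl34 lost its call whichever 1 pair was left out, and Mrps6 without pair 1, 3, 4 or 5 and under quantile normalization; without the pair block their adjusted p were 0.077 and 0.051.

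**Figure D4:**
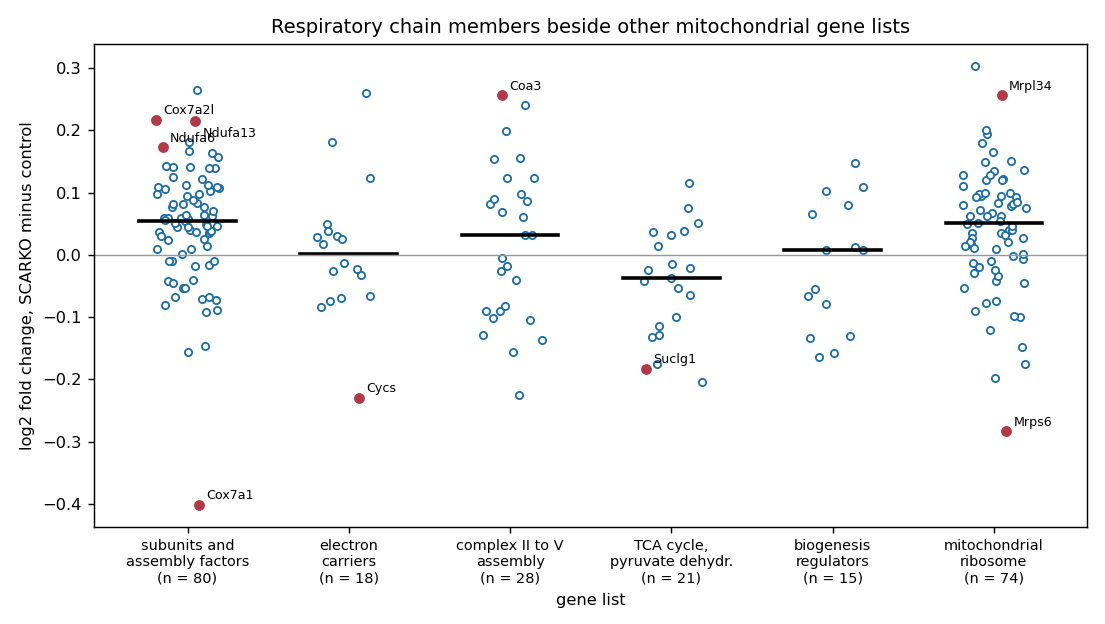
Log2 fold change, SCARKO minus control, of each measured gene in the oxidative phosphorylation group and 5 other mitochondrial gene lists, with the median as a black line and the genes with a limma adjusted p under 0.05 as filled, named points. The medians run from -0.037 for the tricarboxylic acid cycle list to 0.055 for the oxidative phosphorylation genes.

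Markers of other cells were counted beside the small upward median of the members. Of 17 measured Sertoli cell markers 5 fell and 3 rose, beside 3.52% and 2.17% of all genes. Those that fell were Rhox5, which is known to need androgen, Cldn11, Nr0b1, Amhr2 and Gata1. Those that rose were Kitl, Fshr and Gdnf. The median was -0.058, with 7 above 0 and 10 below, and Sox9 was at 0.05 and Wt1 at -0.09. Summed signals were 7366.8 to 7987.4 in control and 6989.5 to 7340.5 in SCARKO pools. These sums include the called genes, so they do not measure the number of Sertoli cells. Of 10 spermatogonia and germ cell markers none was called, the median was 0.093 and the summed signals were 3265.5 to 4052.2 and 3469.2 to 4021.0. None of 6 Leydig cell, 8 macrophage or 6 endothelial markers was called, with medians of 0.0037, 0.097 and 0.024. No erythroid marker was measured, and of the epididymis and fat markers only Lpl was, which rose (log2 fold change 0.51, limma adjusted p = 0.0020) and is also expressed by other cells. The part of cell makeup in the members' values was not tested.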

How the data were processed

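Whole testis RNA was measured on 10 Affymetrix arrays, and the deposited values are signal intensities from the authors' table. The submitters' processing notes name MAS5 for 8 arrays and no tool for the arrays of pair 5. The 22690 probe sets include 64 array controls, which were left out. Values were floored at 1, taken to log2, and the lowest 40% of probe sets by mean log2 value were left out (mean log2 under 4.27). Fits used limma 3.58.1 in R 4.3.3 with littermate pair as a block, a two-sided moderated test with a trend and Benjamini-Hochberg adjustment over 13576 probe sets. The steps were tested on simulated data, with shifts larger than those of the called members and without a pair effect. The labels' protocol states the pairing. Same-numbered pools also deviated together, with correlations of 0.11 to 0.39. The highest correlation of a control pool with a SCARKO pool of another number was -0.014 to 0.11. For every control pool it was below that with its own partner.

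The arrays give no read depth, and their number limits the precision. Groups came from the titles. The members and all lists were chosen with earlier results of these data known. Genes were named by rule: the called members with all their probe sets, the 2 brightest members and the 2 with the smallest p in each complex, complex IV isoforms, X-linked members, and the 2 genes with the smallest p of each pathway list. Ndufa9, Ndufs3, Ndufs7, Cox6c, Cox5a, Atp5pb, Ndufb1, Sdhc, Atp5md, Atp5j2, Cyct, Cyc1, Gabpa, Nrf1 and Tfam were named after their values were seen. So were the marker genes. Cox7b, Cox7b2 and Ndufa4l2 are not analysed here. No set test was made. Alternatives were no filter and a stricter one, an added 16, quantile normalization, no pair block, each pair left out, the groups of the descriptions, and 2 centrings chosen after seeing the data.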

Additional observations from a re-analysis of the deposited data

Results flagged for a closer look

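In 3 of 78 groups of 5 pools, 1 pool lay far from the other 4, by a rule that flags about 5% of such groups by chance. Ndufaf4 had a signal of 173.5 in SCARKO pool 5, and the other SCARKO pools had 225 to 245.3. Cox6a2, a dim gene, had 10.6 in control pool 1, and the others had 2 to 4.4. The median log2 deviation of the complex II genes was 0.033 in control pool 5, and -0.054 to -0.031 in the other control pools.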

How the results depend on the processing

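Counts of calls in this section are of probe sets, not genes. With 1 pair left out, the probe sets called over the whole array ranged from 304 to 744 (704 with all pairs). The member probe sets called lower ranged from 0 to 1 (1 with all), and those called higher from 0 to 5 (3 with all). The 5 came without pair 2, and without pair 3 no member was called. Without the filter on dim probe sets limma called 38 probe sets and 0 member probe sets in either direction. At an unadjusted p under 0.05, 7 member probe sets were lower and 33 higher, beside 7 and 34 in the main fit. Without the pair block it called 404 probe sets and 0 member probe sets in either direction. Of the member probe sets, 3 were lower and 21 higher at an unadjusted p under 0.05, fewer than in the main fit. Quantile normalization gave 2 member probe sets lower, 1 of Cox5a joining that of Cox7a1. With groups from the descriptions limma called 0 probe sets (611 at an unadjusted p under 0.05). It called 0 member probe sets (6 lower and 1 higher at an unadjusted p under 0.05). The median log2 fold change of the 80 member genes was then -0.028. The cause of these differences was not tested. Apart from that setting, the members' median was within 1 SD of its value under every alternative run, and from 0.046 to 0.062 with 1 pair left out. Values of single genes with the groups of the descriptions, which turn pairs 1 to 4 around, are not given here. Under the other alternatives no called gene changed direction. Of the others looked at, Cox4i1 and Cox6a1 did so under quantile normalization, and Cox8c, Atp5b and the median of the assembly factors with 1 pair left out, all close to 0. The pathway lists were not recomputed as medians under the alternatives. The number of arrays limits what can be detected, as do dim signals for the 4 genes left out.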

Other observations

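In pair 5, the pair whose titles and descriptions give the same genotypes, 55 of the 80 genes were higher in the SCARKO pool and 25 lower. The median log2 ratio in pair 5 was 0.052 over the members and 0.015 over all genes. The sign in pair 5 was the same as in the mean of pairs 1 to 4 for 57 of the 80 genes. It was the same for 5241 of all 7973 genes (65.7%), and these counts were not tested.

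Atp5md, a small membrane subunit of the ATP synthase, varied most between pairs among the 80 genes, with an SD of 0.47 between the log2 ratios of the 5 pairs. Its signals were 519.1, 478.7, 502.9, 638.7 and 529.1 in control pools 1 to 5 and 546.4, 693.4, 623.6, 409.4 and 709.1 in SCARKO pools 1 to 5. Pair 4 ran against the others, and the log2 fold change was 0.14 with all pairs (SE 0.13, limma adjusted p = 0.59) and 0.34 without pair 4 (limma adjusted p = 0.027).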
